A study of Mus musculus with 2 samples.

Results

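The 36 genes described here belong to families that write, erase or read lysine acetylation on histones. Some of them act mainly on other substrates, as given below. They were taken by symbol from the RNA-seq table of the series, which holds FPKM (fragments per kilobase of transcript, scaled to the reads of the library) for each RefSeq transcript, and they make up 36 of the 20250 genes that could be named in it. Of these, 10 are acetyltransferases, 11 are zinc-dependent histone deacetylases, 7 are sirtuins and 8 are bromodomain proteins. The genes were listed by name with earlier results of these data known, the rule itself uses no measured value, and all 36 have an entry in the table.

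Histone acetyltransferases move the acetyl group of acetyl-CoA onto lysines of histone tails, which loosens the hold of the histone on DNA, and deacetylases remove it. The zinc-dependent deacetylases fall into class I enzymes, which work in large nuclear corepressor complexes, class IIa enzymes, which bind transcription factors of the MEF2 family and shuttle between nucleus and cytoplasm, class IIb and class IV. Sirtuins need NAD instead of zinc and act in the nucleus, the cytoplasm and the mitochondria. The bromodomain is a fold that binds acetylated lysine, so that proteins carrying it bring transcription machinery or further enzymes to acetylated chromatin. In developing B cells, acetylation of histone H3 marks the promoters that are in use. The study summed it with a second mark, H3K4me3 methylation, and set the sum beside the RNA at the same stages. Its published pro-B chromatin data came from *Rag1* null cells.

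RNA was measured in 2 libraries, 1 for each cell stage. *Ebf1* null pre-pro-B cells (*Ebf1* -/-) lack the transcription factor that starts the B lineage program, and were derived from livers of female embryos. *Rag2* null pro-B cells (*Rag2* -/-) cannot rearrange their antigen receptor genes and were derived from bone marrow of adult males. Both are on a C57BL/6 background and grew on OP-9 stromal cells, the pre-pro-B cells with Il-7, Scf and Flt3l and the pro-B cells with Il-7 alone. Stage, genotype, sex, age, tissue and cytokines therefore cannot be told apart. With 1 library in each group there is no replicate check and no test, and 2-fold is used below only as a rule of size. In RNA from bulk cultures, fewer cells of a type and less RNA per cell cannot be told apart either.

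The labelled stages were checked against markers. All 11 B lineage genes examined were at least 2-fold higher at the pro-B stage. The 11 include *Ebf1*, the gene targeted in the pre-pro-B cells, so its own value is no check of the stage. *Pax5*, a factor that fixes B lineage identity, was at 1.13 FPKM at the pre-pro-B stage and 239 FPKM at the pro-B stage. Of the 7 progenitor genes, 5 passed the filter and all 5 were lower in pro-B cells, while *Gata2* was listed at 0 in both libraries. The pre-pro-B library also held *Mpo* (35.7 FPKM) and *Cd3g* (36.8 FPKM), genes of myeloid and T cells, which were at 0.122 and 0.0351 FPKM in pro-B cells. *Itgam* (19.7 FPKM), *Lyz2* (5.39 FPKM) and *Tcf7* (38.9 FPKM) were present in the pre-pro-B library too, but the other genes of these lists were low there. *Csf1r*, *Csf3r* and *Cd14* had 0.170, 0.00624 and 0.0299 FPKM in it. *Cd3d*, *Cd3e*, *Cd4* and *Cd8a* had 0.533, 0.239, 1.15 and 0.322 FPKM in it. The 7 myeloid genes summed to 61.0 and 6.52 FPKM, with *Elane* listed at 0 in both libraries, and the 6 T lineage genes to 78.0 and 0.255 FPKM, with *Cd3d*, *Cd4* and *Cd8a* listed at 0 in pro-B cells. The part of other cell types in the member values was not tested. The 10 stromal genes summed to 20.3 FPKM in pre-pro-B cells, 15.9 of it *Pdgfrb*, and to 16.7 FPKM in pro-B cells, with *Dcn* listed at 0 in both. Of the 5 stromal genes that passed the filter, *Col1a2*, *Cxcl12* and *Fn1* were at least 2-fold higher and *Pdgfrb* was lower in pro-B cells, with a median log2 ratio of 1.16. No erythroid or megakaryocyte gene of the 5 found passed the filter, and *Hba-a1* was listed at 0 in both libraries. *Ebf1* read 64.0 FPKM in the *Ebf1* null cells and 273 FPKM in the *Rag2* null cells, and *Rag2* read 34.5 and 22.9 FPKM. These values cover whole transcripts, and the sources used here do not say which part of either gene was deleted, so they do not check the genotypes.

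At the level of the whole set, most members differed little between the stages. A gene was compared where its mean over both libraries was at least 1 FPKM, on the scale of log2 of pro-B over pre-pro-B with 1 FPKM added to each, which 35 of the 36 members and 10131 genes in all passed. The member left out, *Hdac11*, had 0.730 FPKM at the pre-pro-B stage and was listed at 0 at the pro-B stage. *Hat1* and *Hdac8* were at least 2-fold higher at the pro-B stage, which is 2 of 35 members (5.71%) where 12.2% of all genes were. *Hdac1*, *Hdac5*, *Hdac9*, *Hdac10*, *Sirt3* and *Brd2* were at least 2-fold lower, which is 6 of 35 members (17.1%) where 17.9% of all genes were. The share that was lower is near that of all genes, so it is no result about the members. The median log2 ratio of the members was -0.08 beside -0.13 for all genes tested, and it came to 0.0021 when the libraries were scaled to a median ratio of 1. In mm9, with gene bounds from GENCODE vM1, the genes past 2-fold lie as follows. *Hat1* is at chr2:71227015-71279679 and *Hdac8* at chrX:99479978-99700698. Of those lower at the pro-B stage, *Hdac1* is at chr4:129193348-129219957, *Hdac5* at chr11:102055746-102091480, *Hdac9* at chr12:34732451-35213754, *Hdac10* at chr15:88953733-88959130, *Sirt3* at chr7:148049569-148068208 and *Brd2* at chr17:34248965-34259262. The FPKM of each cover its exons.

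**Figure D1:**
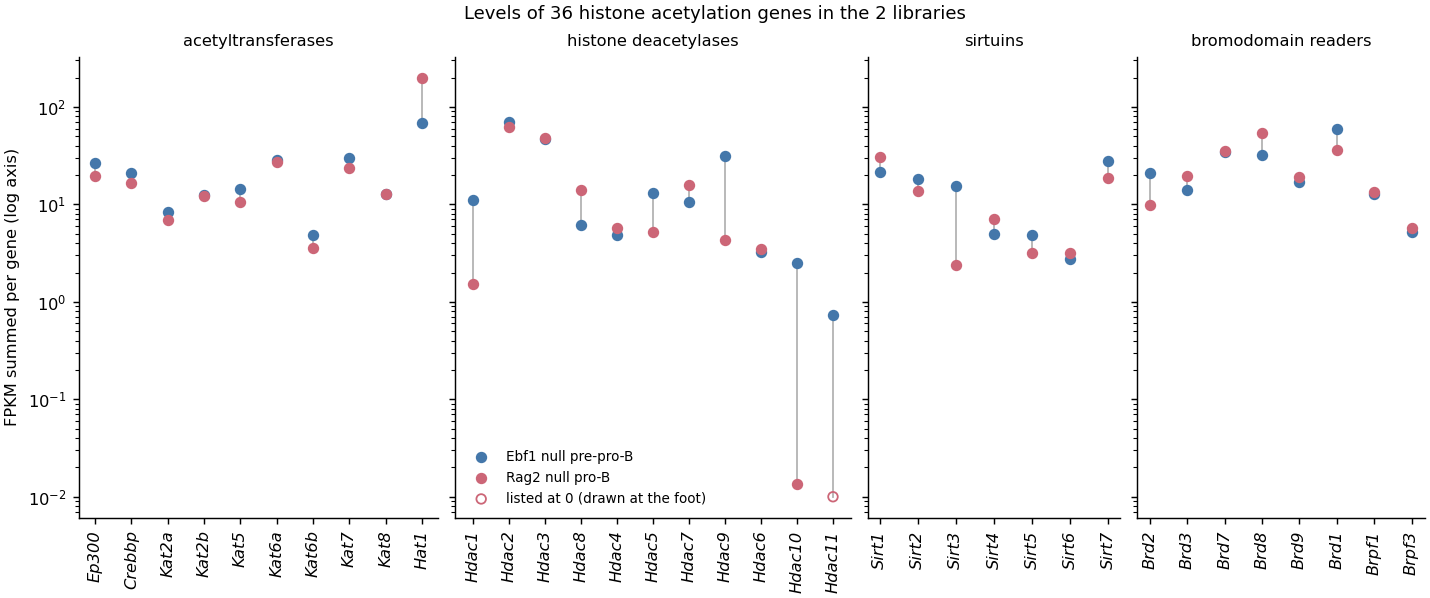
FPKM summed over the protein-coding transcripts of each of the 36 members (y axis, log scale), by group, in the 1 pre-pro-B library (blue) and the 1 pro-B library (red), with a line joining the values of a gene. *Hat1* reaches 198 FPKM in pro-B cells, and among genes above 0 in both libraries the widest gaps are those of *Hdac1*, *Hdac9*, *Hdac10* and *Sirt3*. The open circle marks *Hdac11*, listed at 0 in pro-B cells and drawn at the foot of the axis.

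Among the writers, *Hat1* stood apart from the other 9. *Hat1* encodes the B-type acetyltransferase that acetylates newly made histone H4 before it is placed on DNA, whereas the other acetyltransferases of the set act mainly on chromatin. Its single transcript had 67.9 FPKM at the pre-pro-B stage and 198 FPKM at the pro-B stage, a 2.92-fold higher level (log2 ratio 1.53). In both libraries it was the highest of the 10 acetyltransferases, and it made up 29.8% of their summed FPKM at the pre-pro-B stage and 59.8% in pro-B cells. The 95% intervals that Cuffdiff gives with the values, 5.19 to 135 FPKM and 21.5 to 381 FPKM, overlapped. The study ran Cuffdiff with a blind dispersion, taken over the 2 libraries together. The intervals may therefore hold differences between the stages, and no replicate culture enters them.

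Genes of cell division differed in the same direction as *Hat1*. Of a list of 14 proliferation genes, 13 were at least 2-fold higher at the pro-B stage, where 12.2% of all genes were. The median log2 ratio of the list was 1.71, with *Mcm4* just under the limit at 0.997. *Pcna*, the sliding clamp of DNA replication, had 59.2 FPKM at the pre-pro-B stage and 206 FPKM at the pro-B stage. *Rbbp7*, which encodes the histone-binding partner of the Hat1 enzyme, had 46.3 and 67.7 FPKM, short of 2-fold. The part of cell division in the *Hat1* difference was not tested.

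The promoter of *Hat1* is shown because *Hat1* had the highest level of the members in the pro-B library. It runs from 250 bases before the annotated start to 50 bases after it (chr2:71389010-71389309, plus strand, RefSeq on GRCm38.p6), and the capitals mark the letters CAGCTG, an E-box, which reads the same on both strands and which 16.3% of 32851 promoters of this length hold.
Hat1 promoter: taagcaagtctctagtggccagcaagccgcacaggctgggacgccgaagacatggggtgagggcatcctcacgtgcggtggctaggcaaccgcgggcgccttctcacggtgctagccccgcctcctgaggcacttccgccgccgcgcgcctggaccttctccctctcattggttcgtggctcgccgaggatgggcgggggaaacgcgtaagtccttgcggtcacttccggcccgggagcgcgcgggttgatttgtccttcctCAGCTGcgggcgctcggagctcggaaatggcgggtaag

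The chromatin-bound acetyltransferases had similar levels in both libraries. *Ep300* and *Crebbp* encode the coactivators p300 and CBP, which acetylate histone H3 at enhancers and promoters. *Ep300* had 26.8 FPKM at the pre-pro-B stage and 19.8 FPKM in pro-B cells, and *Crebbp* had 21.0 and 16.8 FPKM. *Kat2a* (GCN5) had 8.43 and 6.97 FPKM, and its relative *Kat2b* (PCAF) 12.6 and 12.1 FPKM. Both supply the catalytic subunit of SAGA-type coactivator complexes. For *Kat2b*, 27.7% of the 32-base stretches of the coding sequence occur elsewhere in the genome, so its value is less certain than that of *Kat2a*, which has no such stretch.

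Of the MYST family, *Kat7* (HBO1), which acts with BRPF and JADE scaffolds, had 30.2 FPKM at the pre-pro-B stage and 23.5 FPKM in pro-B cells. *Kat6a* (MOZ), needed for blood stem cells, had 28.6 and 27.0 FPKM, and its relative *Kat6b* had 4.84 and 3.59 FPKM. *Kat5* (TIP60), the catalytic subunit of NuA4, had 14.3 and 10.5 FPKM. *Kat8* (MOF), which acetylates histone H4 at lysine 16, had 12.8 and 12.7 FPKM. All 9 acetyltransferases other than *Hat1* were below 0 on the log2 scale, from -0.42 to -0.01, with *Kat2b*, *Kat6a* and *Kat8* turning to just above 0 when the libraries were scaled to a median ratio of 1. All 9 lay within the 25th to 75th percentile of all genes tested, -0.69 to 0.41. Summed over the group, the acetyltransferases had 228 FPKM at the pre-pro-B stage and 331 FPKM at the pro-B stage, and without *Hat1* they had 160 and 133 FPKM.

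**Figure D2:**
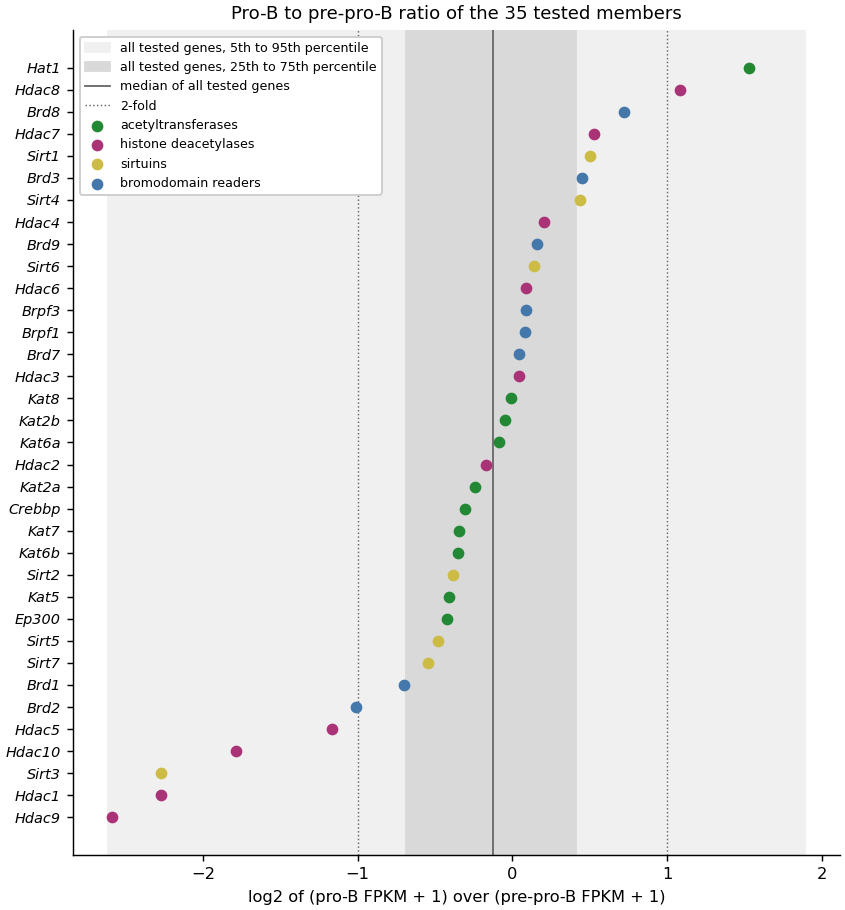
Log2 of pro-B over pre-pro-B FPKM, each plus 1, for the 35 members with a mean of at least 1 FPKM (x axis), ordered by value and coloured by group, 1 library per stage. Grey bands are the 5th to 95th and 25th to 75th percentiles of the 10131 genes tested, dotted lines mark 2-fold, and 8 members lie past them.

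The zinc-dependent deacetylases held 5 of the 8 members past 2-fold. Of 10 deacetylases tested, 4 were at least 2-fold lower and 1 was at least 2-fold higher at the pro-B stage, where 17.9% and 12.2% of all genes were. Several of these calls are uncertain, as given below. *Hdac10* turned to a log2 ratio of 0.29 with its noncoding transcripts added, and *Hdac1* has a near-identical copy. *Hdac8* came to 0.97 when both libraries were scaled to the same total. The group summed to 201 FPKM at the pre-pro-B stage and 161 FPKM at the pro-B stage. The most abundant members did not differ by 2-fold. *Hdac2*, a class I enzyme of the Sin3, NuRD and CoREST complexes, was the highest in both libraries at 70.8 FPKM (interval 3.31 to 175) and 62.8 FPKM (2.62 to 149). *Hdac3*, the enzyme of the NCoR/SMRT complex, was next with 46.6 FPKM at the pre-pro-B stage and 48.1 FPKM in pro-B cells.

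The class I member *Hdac8*, a deacetylase of cohesin that works outside those complexes, had 6.17 FPKM at the pre-pro-B stage (interval 0.0688 to 19.8) and 14.2 FPKM in pro-B cells (0.825 to 42.9). That is 2.30-fold higher, with a log2 ratio of 1.09 that came to 0.97 when both libraries were scaled to the same total (TPM). *Hdac8* and *Hdac6* are the members on the X chromosome, and the pre-pro-B cells were female and the pro-B cells male. *Hdac6*, the cytoplasmic tubulin deacetylase, had 3.23 and 3.50 FPKM. The part of sex in these values cannot be told apart from stage.

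*Hdac1*, the partner of *Hdac2* in the same complexes, had 11.2 FPKM at the pre-pro-B stage (interval 0.461 to 45.5) and 1.53 FPKM in pro-B cells (0 to 8.18). The log2 ratio was -2.27, and *Hdac1* went from rank 5 to rank 9 among the 11 deacetylases. Its level is uncertain, because the genome holds copies of it, the closest of them near-identical. Of the 32-base stretches of its coding sequence, 88.8% occur at another place in mm9. The closest copy, annotated as the protein-coding gene *Gm10093* at chr17:78890922-78892370, has no introns. It differs from the coding sequence at 9 of 1446 bases, an identity of 99.4%, and 10 of the 14 coding exons match it without a difference. The table has no entry under that name, and the authors divided reads with several alignments by Cuffdiff's multi-read correction. Places on chromosomes 18 and 12 match fewer of the coding stretches, 26.3% and 24.9%. How the reads were shared between *Hdac1* and its copies was not tested. *Hdac2*, *Hdac3* and *Hdac8* have no such stretch.

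Coding exon 5 of *Hdac1* (chr4:129200207-129200345, minus strand, mm9) is shown beside the stretch it matches in the copy (chr17:78891277-78891415, plus strand), because this exon holds most of the differences. Capitals mark the 6 bases, of 139, at which they differ, and the remaining 3 differences lie in other coding exons.
Hdac1 coding exon 5: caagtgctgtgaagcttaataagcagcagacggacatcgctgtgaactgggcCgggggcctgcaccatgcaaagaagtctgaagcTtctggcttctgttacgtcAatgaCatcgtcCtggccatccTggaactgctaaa
Copy on chromosome 17: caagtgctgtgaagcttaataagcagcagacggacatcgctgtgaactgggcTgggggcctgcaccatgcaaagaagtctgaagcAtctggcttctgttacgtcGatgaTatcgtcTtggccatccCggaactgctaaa

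Of the classes with every member tested, class IIa had the widest ratio of summed FPKM. Its 4 genes summed to 59.5 FPKM at the pre-pro-B stage and 30.9 FPKM in pro-B cells, and its share of all deacetylase FPKM was 29.6% and 19.2%, while class I had 67.2% and 78.6%. *Hdac9* had 31.1 FPKM at the pre-pro-B stage and 4.35 FPKM in pro-B cells, 7.16-fold lower with a log2 ratio of -2.59. That is the lowest of the members with 1 FPKM added, whereas without it *Hdac10* and *Hdac1* were lower, and by the most abundant transcript *Sirt3* was. Both of its transcripts were lower: NM_024124 had 27.8 and 4.03 FPKM, and NM_001271386 had 3.39 and 0.315 FPKM. For NM_024124 the intervals, 0.299 to 56.7 and 0.0573 to 9.0 FPKM, overlapped. *Hdac9* went from the third-highest deacetylase in pre-pro-B cells to the seventh in pro-B cells.

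*Hdac5* had 13.0 FPKM at the pre-pro-B stage and 5.21 FPKM in pro-B cells, 2.49-fold lower with a log2 ratio of -1.17. Nearly all of it came from NM_010412, with intervals of 1.02 to 25.6 and 0.25 to 10.9 FPKM. The other class IIa genes did not go that way. *Hdac4* had 4.83 and 5.72 FPKM. *Hdac7*, the class IIa member known for its role in lymphocytes, had 10.6 FPKM at the pre-pro-B stage and 15.6 FPKM in pro-B cells. It had the most transcripts of any member, 8, and NM_019572 carried 53.9% of its FPKM at the pre-pro-B stage and 66.8% in pro-B cells. Within class IIa, *Hdac7* was thus the third of 4 genes at the pre-pro-B stage and the first at the pro-B stage.

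The partners of class IIa enzymes differed in both directions as well. Of 10 such genes, 7 were tested, 2 were at least 2-fold lower and 1 at least 2-fold higher, with a median log2 ratio of -0.21. Of all genes tested, 17.9% were that much lower and 12.2% that much higher. *Mef2c* had 209 and 31.7 FPKM and *Mef2a* 147 and 18.8 FPKM in the pre-pro-B and the pro-B library. *Mef2d*, of the same MEF2 family, had 36.3 and 84.2 FPKM. The ratios of *Mef2a* (7.80-fold lower) and *Mef2c* (6.61-fold lower) were close in size to that of *Hdac9*. The 14-3-3 genes, whose products hold phosphorylated class IIa enzymes in the cytoplasm, stayed within 2-fold, with *Ywhae* at 208 and 192 FPKM and *Ywhag* at 26.5 and 19.8 FPKM.

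Class IIb and class IV had the lowest levels of the zinc-dependent deacetylases at the pre-pro-B stage. *Hdac10*, a deacetylase of polyamines, had 2.50 FPKM at the pre-pro-B stage (interval 0 to 6.99) and 0.0136 FPKM in pro-B cells (0 to 0.0225), with a log2 ratio of -1.79. The pro-B value is at about the 0.0138 FPKM that 3 fragments give for a transcript of its length at the nominal 90000000 reads. This is the level of its only protein-coding transcript, NM_199198, and 3 noncoding transcripts of the same gene are listed beside it. NR_028449 had 1.47 FPKM at the pre-pro-B stage and 4.16 FPKM in pro-B cells, NR_028447 had 0.0008 and 1.55 FPKM, and NR_028448 had 0.525 FPKM and was listed at 0. All transcripts of *Hdac10* together had 4.49 FPKM at the pre-pro-B stage and 5.73 FPKM in pro-B cells, for a log2 ratio of 0.29. The sum of all its transcripts was thus not lower in pro-B cells, and the difference lay in the transcript to which the reads were assigned. *Hdac11*, the class IV enzyme, was below the filter.

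**Figure D3:**
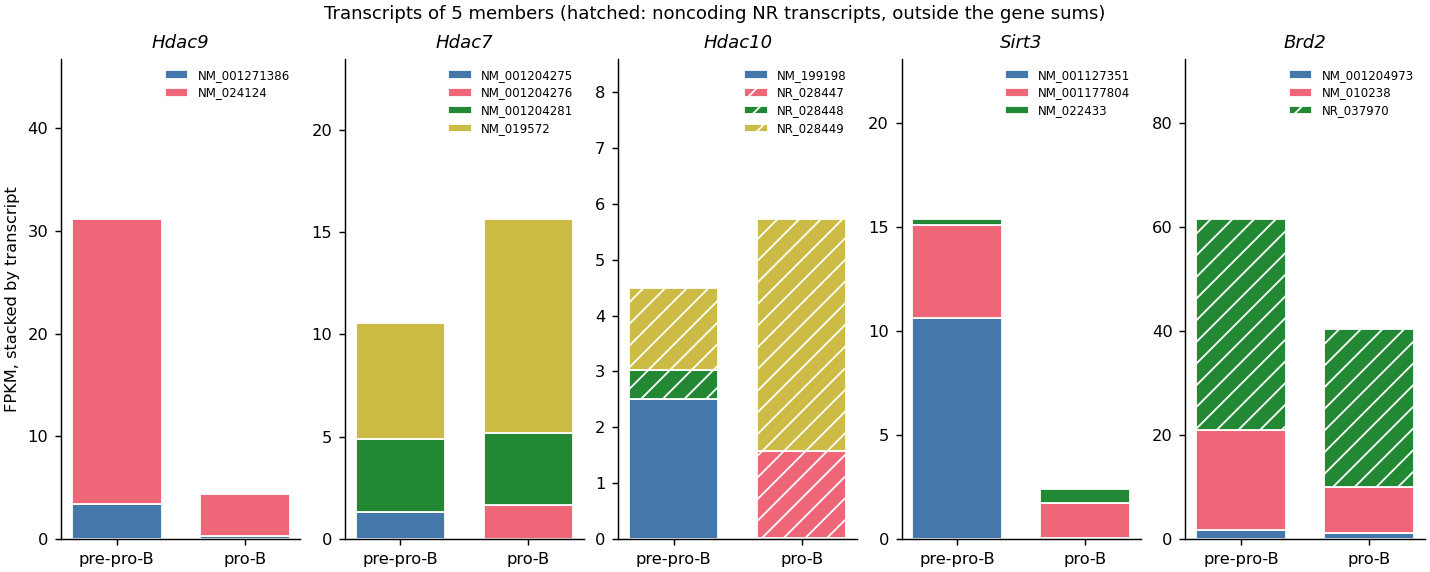
FPKM of the transcripts of *Hdac9*, *Hdac7*, *Hdac10*, *Sirt3* and *Brd2* (y axis, stacked, a scale for each gene) in the pre-pro-B and the pro-B library, with noncoding NR transcripts hatched. Transcripts under 0.01 FPKM in both libraries are not drawn. The protein-coding transcript of *Hdac10* goes from 2.50 to 0.0136 FPKM while NR_028449 goes from 1.47 to 4.16 FPKM, and NM_001127351 of *Sirt3* goes from 10.6 to 0.0383 FPKM.

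Of the sirtuins, 6 of 7 differed by less than 2-fold. The group summed to 95.1 FPKM at the pre-pro-B stage and 78.8 FPKM in pro-B cells. *Sirt7*, the nucleolar enzyme, was the highest in pre-pro-B cells, with 27.7 FPKM (interval 0.968 to 56.7) beside 18.7 FPKM (0.691 to 38.4) in pro-B cells. *Sirt1*, the nuclear enzyme that also acts on p53, was the highest in pro-B cells, with 21.4 FPKM at the pre-pro-B stage and 30.7 FPKM in pro-B cells. The order of the pair at the head of the group thus differed between the libraries, each by less than 2-fold and with intervals that overlapped.

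*Sirt3*, the main deacetylase of mitochondria, was the sirtuin past 2-fold. It had 15.4 FPKM at the pre-pro-B stage and 2.40 FPKM in pro-B cells, 6.41-fold lower with a log2 ratio of -2.27. It was also the only one of the 16 members with several protein-coding transcripts whose main transcript differed between the libraries. NM_001127351 had 10.6 FPKM at the pre-pro-B stage (interval 0 to 35.5) and 0.0383 FPKM in pro-B cells (0 to 0.0553), and went from 69.1% to 1.59% of the FPKM of the gene. NM_001177804 had 4.46 and 1.70 FPKM, and it held 70.8% of the gene in pro-B cells. NM_022433 was low in both, at 0.292 and 0.664 FPKM. The other mitochondrial sirtuins stayed within 2-fold, *Sirt4* with 5.01 and 7.14 FPKM and *Sirt5*, which removes succinyl and malonyl groups, with 4.81 and 3.16 FPKM. *Sirt2*, the cytoplasmic enzyme, had 18.0 and 13.6 FPKM, and *Sirt6*, which acts on H3 at telomeres and damaged DNA, had 2.77 and 3.16 FPKM.

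The readers had nearly the same summed level at both stages, 196 FPKM at the pre-pro-B stage and 193 FPKM at the pro-B stage, a difference whose sign turned when the libraries were scaled to a median ratio of 1. *Brd1*, a scaffold of the BRPF family that ties acetyltransferases to chromatin, was the highest in pre-pro-B cells, with 59.5 FPKM (interval 4.23 to 137) beside 36.3 FPKM (1.5 to 81.0) in pro-B cells. *Brd8*, a subunit of the NuA4 complex of *Kat5*, was the highest in pro-B cells, with 32.4 FPKM (0.532 to 107) at the pre-pro-B stage and 54.0 FPKM (0.296 to 193) in pro-B cells. Its log2 ratio of 0.72 was the third-highest of the members. The other BRPF scaffolds were level, *Brpf1* with 12.7 and 13.5 FPKM and *Brpf3* with 5.27 and 5.67 FPKM. So were the bromodomain subunits of SWI/SNF remodelling complexes, *Brd7* with 34.3 and 35.4 FPKM and *Brd9* with 17 and 19.1 FPKM.

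The BET proteins, which bind acetylated histone H4 and recruit the elongation machinery, went in opposite directions. *Brd3* had 14 FPKM at the pre-pro-B stage and 19.6 FPKM in pro-B cells. *Brd2* had 21.0 and 9.90 FPKM over its protein-coding transcripts, 2.12-fold lower with a log2 ratio of -1.01, just past the limit. NM_010238, the main one, had 19.3 FPKM (interval 0.0147 to 53.5) and 8.82 FPKM (0 to 26.8). Most *Brd2* RNA was assigned to the noncoding NR_037970, with 40.5 FPKM at the pre-pro-B stage and 30.4 FPKM in pro-B cells, which is 65.8% and 75.4% of the gene. With it the gene had 61.5 and 40.3 FPKM, a log2 ratio of -0.60.

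The RefSeq table held promoters of 250 bases before to 50 after the start for 31 of the 36 members, 44 promoters in all, none of them for *Kat6a*, *Hdac1*, *Hdac3*, *Hdac10* or *Brd8*. The letters TCCC and GGGA 2 bases apart, the palindromic core to which Ebf1 binds, were in 1 of the 44, at *Brd2*, where 0.904% of all promoters hold them. The E2F-type letters TTCCCGC, on either strand, were in 3 of 44 (*Sirt4*, *Sirt6* and *Brd7*), where 4.6% of all promoters hold them. CAGCTG was in 8 of 44, where 16.3% of all promoters hold it, and the Runx letters TGTGGT, on either strand, were in 8 of 44, where 16.8% of all promoters hold them. A match is a description of the letters and no binding was measured here. The *Brd2* promoter with the Ebf1 letters (chr17:34121698-34121997, minus strand, GRCm38.p6) is 1 of 3 in the table for this gene and is shown as the only member promoter that holds them, with both matches in capitals, first TGTGGT and then the Ebf1 letters.
Brd2 promoter: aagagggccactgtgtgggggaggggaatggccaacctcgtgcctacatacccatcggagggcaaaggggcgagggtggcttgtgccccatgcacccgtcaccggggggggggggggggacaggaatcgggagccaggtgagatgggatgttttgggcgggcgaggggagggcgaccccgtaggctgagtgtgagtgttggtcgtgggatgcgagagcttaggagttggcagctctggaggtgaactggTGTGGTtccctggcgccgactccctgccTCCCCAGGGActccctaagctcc

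Each transcript comes with an interval from Cuffdiff. Its dispersion was taken blind over both libraries, so overlap does not show how firm a difference between the stages is. Of the 64 protein-coding transcripts of the members, 53 had a value above 0 and limits on either side of it in both libraries. None of the 53 had intervals that did not overlap, where 2.85% of 14296 such transcripts of all genes did. With so small a share over all genes, this is no result about the members. The other 11 transcripts were not compared in this way, among them the only transcript of *Hdac11*, and gene sums over several transcripts carry no interval of their own.

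The genes that work with the members were described by lists. Of 42 partners in acetyltransferase complexes, which include the member *Brpf1*, none was at least 2-fold higher and 2 were at least 2-fold lower. Of all genes tested, 12.2% were that much higher and 17.9% that much lower. The median log2 ratio of the partners was -0.08. The 2 lower genes were *Morf4l1* (4.37 and 0.754 FPKM), a chromodomain subunit of NuA4, and *Ncoa3* (23.3 and 9.84 FPKM), a nuclear receptor coactivator. The other 40 stayed within 2-fold on the scale with 1 FPKM added, and among them *Tada3* (7.16 and 3.20 FPKM) and *Supt3* (8.09 and 3.78 FPKM), subunits of SAGA-type complexes, were past it without the added FPKM.

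Of 35 partners in deacetylase complexes, 3 were at least 2-fold higher, 5 were at least 2-fold lower and the median was -0.19. Of all genes tested, 12.2% were that much higher and 17.9% that much lower. *Chd4*, the main remodelling ATPase of the NuRD complex, had 126 FPKM at the pre-pro-B stage and 45.8 FPKM in pro-B cells, and its relative *Chd3* had 15.4 and 38 FPKM. *Mbd2*, the subunit that binds methylated DNA, had 54.9 and 234 FPKM. *Mta3* had 42.1 and 11.2 FPKM and *Gatad2a* 7.36 and 1.17 FPKM. Their NuRD relatives *Mta1* (17.6 and 11.9 FPKM), *Mta2* (71.6 and 49.1 FPKM), *Mbd3* (10.9 and 11.5 FPKM) and *Gatad2b* (32.9 and 26.9 FPKM) stayed within 2-fold. The remaining genes past 2-fold were *Mier3* (26.4 and 61.1 FPKM), *Rcor2* of the CoREST complex (23.6 and 5.14 FPKM) and *Mideas* of the MiDAC complex (11 and 4.41 FPKM). The core subunits stayed level, *Sin3a* with 61.0 and 57.2 FPKM, *Rbbp4* with 57.2 and 61.4 FPKM and *Ncor1* with 72.9 and 66.2 FPKM.

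Of 20 other bromodomain and YEATS readers tested, 2 were at least 2-fold higher and 2 at least 2-fold lower, and the median was -0.06. Of all genes tested, 12.2% were that much higher and 17.9% that much lower. On the scale with 1 FPKM added, *Cecr2* (6.23) and *Brwd1* (-5.06) had log2 ratios wider than any of the 35 members. *Cecr2*, the reader of a remodelling complex, had 1.57 FPKM at the pre-pro-B stage (interval 0.0343 to 4.22) and 192 FPKM in pro-B cells (1.26 to 514). *Brwd1*, a reader known in later B cell development, had 47.3 and 0.445 FPKM, lower in each of its 3 transcripts. The intervals of NM_001103179, 0.534 to 37.6 and 0 to 0.405 FPKM, did not overlap, as for 2.85% of such transcripts of all genes. Those of the most abundant, NM_176928, overlapped (0 to 103 and 0 to 0.428 FPKM). So did those of NM_145125 (0 to 15.1 and 0 to 0.79 FPKM). *Atad2*, a reader tied to replication, had 36.3 and 113 FPKM, and *Zmynd8* had 54.8 and 17.6 FPKM.

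The supply of substrate was described by 12 genes, of which 9 were tested. *Acly*, which makes acetyl-CoA from citrate in the cytoplasm and nucleus, had 71.4 and 72.9 FPKM. *Acss1*, the mitochondrial acetyl-CoA synthetase, was higher in pro-B cells, with 48.5 and 130 FPKM. *Nmnat3*, of mitochondrial NAD synthesis, was lower, with 5.95 and 0.0553 FPKM, and *Nampt*, the main step of NAD salvage, had 21.2 and 26.9 FPKM. The median log2 ratio of this list was 0.03.

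**Figure D4:**
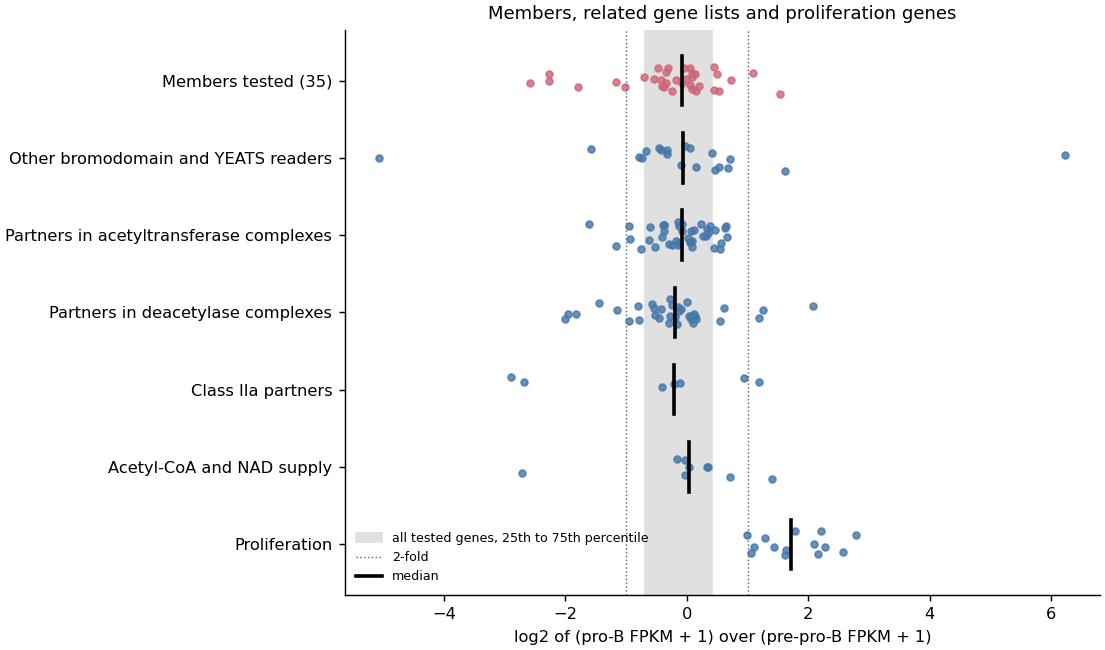
Log2 of pro-B over pre-pro-B FPKM, each plus 1 (x axis), for the 35 members tested (red) and for the tested genes of 6 further lists (blue), each point a gene, heights within a row only spreading the points, 1 library per stage. Black bars are medians, the grey band is the 25th to 75th percentile of all genes tested, and dotted lines mark 2-fold. The medians of the members and of the partner, reader and supply lists lie between -0.21 and 0.03, while that of the proliferation genes is 1.71.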

How the data were processed

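The authors extracted total RNA from both cultures, depleted ribosomal RNA and RNA under 200 nt, and sequenced strand-specific libraries to a nominal 90000000 single-end reads of 97 bp. Reads were aligned to mm9 with TopHat (version 1.5 in the submitters' processing notes), and the deposited FPKM of each RefSeq transcript, with 95% limits, were estimated by Cuffdiff 2.1.1 with multi-read and bias correction. No scaling between libraries was applied. FPKM hold no counts, so no interval from depth is given, and the floor used is the FPKM of 3 fragments at the nominal depth, for counting error only. A further deposited table holds the authors' own fold changes and p-values, and it was not used, nor were its 2 columns of values per sample.

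RefSeq symbols (from GRCm38.p6, for names alone) were found for 26555 of 26968 protein-coding entries. FPKM were summed per gene over these, and log2 ratios used a pseudocount of 1 FPKM, a mean of at least 1 FPKM and a limit of 2-fold. The members past 2-fold, the highest member of each group and those whose main transcript differed are given in full, and the others by level. The 36 members and the gene lists were chosen with earlier results of these data known. Copies were sought as exact 32-base matches of transcripts (GENCODE vM1) in mm9, and the fold rule was tested on simulated data. The simulation held counting noise alone and changes wider than 2-fold. It had no spread between cultures and no error in assigning reads to transcripts, so it does not show how firm the calls here are. Computations ran in Python 3.11.15 (matplotlib 3.10.9, scipy 1.17.1, pandas 2.3.3, numpy 2.4.6). Alternatives were other pseudocounts, filters, scalings, transcript choices and fold limits.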

Additional observations from a re-analysis of the deposited data

Results flagged for a closer look

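Transcripts annotated as noncoding lie outside the gene sums, and 4 of them, from 2 members, were above the level that 3 fragments give at the nominal depth. *Brd2* NR_037970 reached 40.5 FPKM, in pre-pro-B cells. *Hdac10* NR_028449 reached 4.16 FPKM and NR_028447 reached 1.55 FPKM, both in pro-B cells, and NR_028448 reached 0.525 FPKM, in pre-pro-B cells. With 1 library in each group, no member could be tested for an outlying sample.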

How the results depend on the processing

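The count of members at least 2-fold higher, 2 as reported, was 1 under TPM scaling, where *Hdac8* came to 0.97, and 0 at a 3-fold limit, where *Hat1* lay just inside. The count at least 2-fold lower, 6 as reported, ranged from 4 to 7 over all alternatives. *Hdac10* turned to 0.29 when noncoding transcripts were added, and *Brd2* came to -0.60 there and to -0.93 under median-ratio scaling. Of 345 values of single members under the alternatives, 341 stayed on their side of the limit and in their direction if called. Many of these values could not change. Other filters, keeping status OK and leaving out duplicate entries left every member ratio as it was. Adding noncoding transcripts could move only *Hdac10* and *Brd2*, and choosing the most abundant transcript could not move members with a single protein-coding transcript. The median of the members lay between -0.20 (TPM scaling) and 0.0021 (median-ratio scaling), and the median of all genes, -0.13 as reported, came to -0.24 and -0.04 under these scalings. The group sums stayed inside 2-fold under every alternative, and pseudocounts do not enter them. Adding noncoding transcripts or keeping those of status OK, alternatives chosen after seeing the data, left 0 member transcripts with intervals apart. No paired analysis was possible because each group has 1 library, and for the same reason no library could be left out. FPKM carry no depth, so members near 1 FPKM are the least certain.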
